A study of Mus musculus with 4 samples.

Results

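Hepatocytes build fatty acids from citrate that leaves the mitochondrion, and the 10 genes described here encode the enzymes of that route and the factors that drive it. Acly (ATP citrate lyase) cleaves citrate to acetyl-CoA, Acaca (acetyl-CoA carboxylase) makes malonyl-CoA, and Fasn (fatty acid synthase) joins these units into palmitate. Me1 (malic enzyme) supplies NADPH, Elovl6 lengthens palmitate, and Scd1 (stearoyl-CoA desaturase) adds a double bond. Srebf1 encodes SREBP-1, the factor that answers insulin and, through the LXR nuclear receptors, sterols, and Mlxipl encodes ChREBP, the factor that answers sugars. Thrsp (Spot 14) and Pnpla3, a lipase of lipid droplets, are well-known targets of these factors in liver. The genes were taken as a named list, 10 of the 21911 protein-coding genes of GENCODE vM21, and all 10 passed the minimum mean of 10 CPM used for the comparisons, where CPM is a count scaled to a library total of 1000000.

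Accessibility was measured by single-nucleus ATAC-Seq (scATAC-Seq), in which the Tn5 transposase cuts open DNA and a droplet barcode names the nucleus. The 4 libraries held hepatocytes isolated by collagenase perfusion from chow-fed mice of 10 to 12 weeks, described in the study's methods as C57BL/6J males, either undamaged (PHx 0 h) or 48, 72 and 96 h past PHx, an operation (partial hepatectomy) that takes out some of the lobes and is followed by regrowth. No genetic change or drug was used, and undamaged liver was the control. Each time point had 1 library, and those of 0 and 48 h came from 1 mouse each, so time and library cannot be told apart and no test between time points was possible. The comparisons address how accessibility at these genes differed while the liver regrew and whether it was again at the 0 h level by 96 h.

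Nuclei, taken as barcodes with at least 1000 counts in peaks, numbered 3977, 3892, 4256 and 3224 at 0, 48, 72 and 96 h, and their median counts were 26005, 11629, 4841 and 3681.5. The summed level of 10 hepatocyte markers, all with peaks in every library, lay between 4840 and 6931 CPM, against 234 to 490 for 10 endothelial, 110 to 240 for 8 Kupffer and myeloid, 79.6 to 158 for 8 stellate and 46.6 to 70.1 for 6 cholangiocyte markers. Between 0.682% and 3.55% of nuclei carried more counts per marker gene for the non-parenchymal lists than for the hepatocyte list. Pairs of libraries had 681 to 882 deposited barcodes in common, and 877 of the 0 h nuclei carried a barcode that also occurred in another library, against 237, 125 and 123 later. Results were computed with and without these. A gene's level is the CPM of all peaks that touch its body or the 2000 bp upstream, in whole peaks, with an exact 95% Poisson interval for counting error only. Peaks were called library by library, so counts follow the called length, which is given beside them.

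The promoters of Fasn and Srebf1 hold the same rare repeat, and those of Mlxipl hold an E-box and a sterol element core. These sequences are shown because the peaks over these starts are the ones whose changes are described in most detail. Promoter windows from RefSeq (GRCm38.p6) were matched for 9 of the 10 genes, 13 windows in all, without Scd1. Each line gives the 250 bases before an annotated start, 5′ to 3′ on the coding strand, with matches to CCAAT (NF-Y box), CACGTG (E-box), TCACNCCAC (sterol element core), AGTAACCCC, and TGACCG followed after any 2 bases by AGTAACCCC (the repeat type that LXR with RXR binds), on either strand, in capitals. The last 2 patterns were chosen after the sequences had been seen.
Fasn, chr11:120824548-120824797, minus strand: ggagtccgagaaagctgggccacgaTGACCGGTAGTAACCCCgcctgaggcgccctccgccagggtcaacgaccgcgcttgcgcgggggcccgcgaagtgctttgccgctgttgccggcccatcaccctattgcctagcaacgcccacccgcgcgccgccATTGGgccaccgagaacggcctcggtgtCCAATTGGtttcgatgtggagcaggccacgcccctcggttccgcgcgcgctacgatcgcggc
Srebf1 at its downstream start, chr11:60210472-60210721, minus strand: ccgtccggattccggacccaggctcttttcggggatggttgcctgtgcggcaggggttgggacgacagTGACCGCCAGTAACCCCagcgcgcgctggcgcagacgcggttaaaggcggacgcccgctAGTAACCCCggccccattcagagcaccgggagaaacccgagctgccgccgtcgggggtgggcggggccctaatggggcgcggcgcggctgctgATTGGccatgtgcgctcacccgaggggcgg
Mlxipl at its second start, chr5:135106641-135106890, plus strand: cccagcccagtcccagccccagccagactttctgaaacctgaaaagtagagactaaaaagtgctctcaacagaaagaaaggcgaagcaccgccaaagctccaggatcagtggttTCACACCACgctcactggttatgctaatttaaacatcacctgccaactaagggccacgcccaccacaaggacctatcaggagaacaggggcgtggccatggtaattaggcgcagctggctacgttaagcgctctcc
Mlxipl at its first start, chr5:135089640-135089889, plus strand: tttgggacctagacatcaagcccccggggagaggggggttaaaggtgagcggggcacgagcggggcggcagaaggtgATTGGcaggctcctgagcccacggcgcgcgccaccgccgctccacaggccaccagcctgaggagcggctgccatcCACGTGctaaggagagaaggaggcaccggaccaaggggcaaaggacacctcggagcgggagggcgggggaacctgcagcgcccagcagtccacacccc
The whole repeat began 225 bases before the Fasn start and 182 bases before the downstream Srebf1 start. Only 3 of all 32851 promoter windows of 300 bases held it (0.00913%). Its part AGTAACCCC was in 0.134% of windows and occurred a second time in Srebf1, 123 bases before the start. CCAAT, held by 37.4% of all windows, was present 3 times in the Fasn window, with 2 of these matches overlapping in the palindrome CCAATTGG, and in 8 of the 13 windows of these genes. The E-box (7.15% of all windows) was found in the first Mlxipl window and the sterol element core (1.24%) in the second. GGGCGG (Sp1 box, 35.7%) was in 6 of the 13 windows. Neither TATAAA (13.6%) nor a pair of AGGTCA with any 4 bases between them (0.0152%) was found in the 13 windows. A match is a description of letters and not of a bound site.

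Fasn (ENSMUSG00000025153.9, chr11:120805846-120824547, minus strand) was the most open of the 10 genes in undamaged liver and had the largest change at 48 h. Its level at 0, 48, 72 and 96 h was 655 CPM (649 to 661), 265 (259 to 271), 506 (493 to 518) and 432 (417 to 447), with intervals that did not overlap between any 2 libraries. The 48 h library was thus 2.47-fold lower than undamaged liver (log2 ratio -1.31, interval -1.34 to -1.27), and the 72 h library 1.91-fold higher than the 48 h one. At 96 h the level lay 1.52-fold below 0 h.

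The called length of Fasn hardly differed between 0 and 48 h. A peak covered the whole gene from before its start to beyond its end, into Ccdc57, with 27108 bp at 0 h, 26416 at 48 h and 25950 at 72 h, while at 96 h the peak over the start had 22988 bp. Of all 14214 protein-coding genes tested, 162 fell at least as far as Fasn at 48 h, and among the 7319 whose covered length stayed within 1.2 times, 4 did, Fasn among them. In that group of genes the median log2 ratio was -0.19. At 96 h only 426 genes had kept their length to within 1.2 times, their median was 0.96, and Fasn, at -0.60, was the only one of them at least 1.5-fold lower than at 0 h (0.235%). That call lay at the threshold, with an interval of -0.65 to -0.55, and was lost with barcodes of at least 3000 counts (-0.55), in nuclei of 3000 to 8000 counts (-0.45) and per kb (-0.36). It was also lost over the whole stretch of the 0 h peak, which held 2 peaks at 96 h, with 455 CPM in 24096 bp (-0.53). The change at 48 h was -1.30 in nuclei of 3000 to 8000 counts, -1.30 without nuclei of low hepatocyte markers and -1.34 without barcodes shared between libraries.

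Per nucleus, fewer nuclei had any count at Fasn at 48 h, and the typical nucleus had fewer. Nuclei with at least 3000 counts were thinned at random to 3000, which left 3569, 3371, 3073 and 1930 of them and left out 408, 521, 1183 and 1294. The mean count at Fasn was then 1.97, 0.752, 1.495 and 1.28 at 0, 48, 72 and 96 h, and its median and upper quartile were 2 and 3 at 0 h and 0 and 1 at 48 h. The share of nuclei with any count was 72.4% (exact binomial interval 70.9 to 73.9), 40.8% (39.1 to 42.5), 57.0% (55.2 to 58.8) and 50.4% (48.1 to 52.6). Without thinning the shares were 85.5%, 57.5%, 55.6% and 45.2%, which follow the depth of the libraries. In the 109 nuclei of low hepatocyte markers at 0 h, whose median count was 3034, Fasn stood at 163 CPM (114 to 225) against 657 (651 to 663) in the other nuclei.

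**Figure D1:**
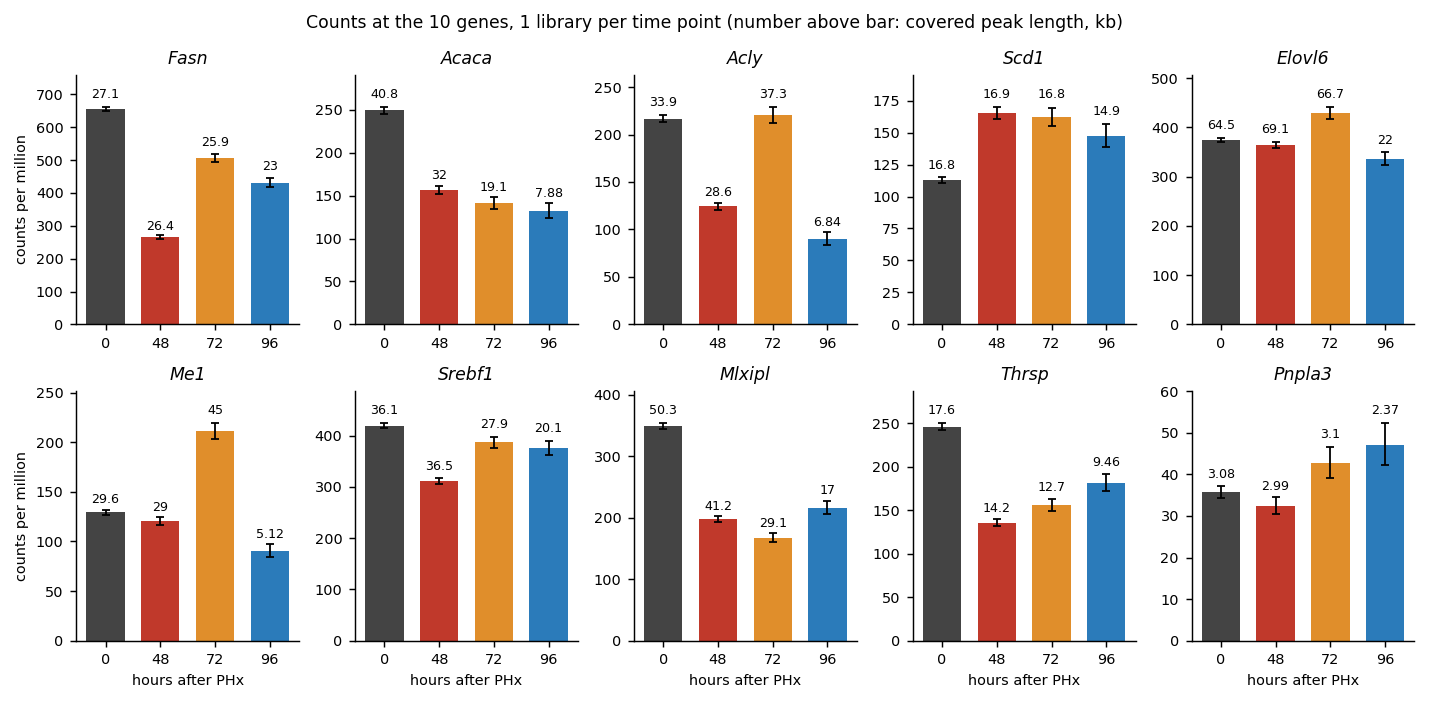
CPM at each of the 10 genes in the 4 libraries (x axis, hours after PHx), with exact 95% Poisson intervals and the covered peak length in kb above each bar. Fasn is at 655, 265, 506 and 432 CPM at nearly equal length, and Scd1 rises from 113 to 165 CPM. Me1 and Acly are higher at 72 h than at 48 h, with more called length.

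Scd1 (chr19:44394455-44407879, minus strand) went the other way at equal called length. Its 4 values, in the order of time, were 113 CPM (110 to 115), 165 (161 to 170), 162 (155 to 169) and 148 (139 to 157), over 16.8, 16.9, 16.8 and 14.9 kb. All 3 later libraries were above undamaged liver, and those of 48 and 72 h could not be separated. The log2 ratios of 0.55, 0.52 and 0.39 stayed below 1.5-fold, and of the 7319 genes of unchanged length 87 rose as far at 48 h. At 72 h 609 of 5764 such genes rose as far. At 96 h 391 of 426 did, with a median of 0.96, so Scd1 lay below most of them. The 48 h value passed 1.5-fold under other scales, with 0.63 when scaled to the regions shared by all libraries and 0.61 with the median gene at 0.

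The ratio of Fasn to Scd1 counts inside a library needs no scaling between libraries. It was 5.80 (5.66 to 5.95) in undamaged liver, and 1.60 (1.55 to 1.66), 3.12 (2.97 to 3.28) and 2.92 (2.73 to 3.13) in the later libraries. The counts at these loci thus differed most in undamaged liver and least at 48 h, and the last 2 libraries did not differ beyond their intervals.

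Acly, Me1 and Acaca differed between libraries in both counts and called length. Acly (chr11:100476353-100528000, minus strand) had 217, 124, 220 and 90.0 CPM over 33.9, 28.6, 37.3 and 6.84 kb at 0, 48, 72 and 96 h. It was low at 48 and 96 h, and its log2 ratio at 72 h was 0.02 (-0.03 to 0.08) over the whole gene, against -1.23 at the promoter peak and 1.14 with binarised counts. The peak over its start shortened from 29277 bp at 0 h to 11486, 11316 and 2065 bp. Me1 (chr9:86581371-86695953, minus strand) had 129, 120, 211 and 90.6 CPM over 29.6, 29.0, 45.0 and 5.12 kb, so its rise at 72 h came with more called peaks. A region in an intron of Me1 (chr9:86623981-86630823) went from 0.242 CPM over 105 bp to 1.92 over 894 bp, reached 22.4 over 6843 bp at 72 h, and had no peak at 96 h. Me1 at its promoter alone, peaks within 1000 bp of the start, did not share the rise, with 42.5, 29.6, 32.2 and 30.5 CPM.

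Acaca (chr11:84129672-84401651, plus strand) was lower in each later library, with 250, 157, 141 and 133 CPM over 40.8, 32.0, 19.1 and 7.88 kb. Its first annotated start was at 11.6, 9.16, 11.1 and 11.4 CPM, with a log2 ratio at 48 h of -0.34 (-0.54 to -0.15) at near-equal length. The start at position 84195438, inside the gene, lay in a peak of 10031 bp with 57.7 CPM at 0 h and in one of 1017 bp with 3.94 CPM at 48 h, and no peak covered it at 72 or 96 h. The region around that start, summed over all its peaks, had 57.7, 21.4, 20.8 and 13.9 CPM over 10031, 5150, 4136 and 1574 bp, with log2 ratios to 0 h of -1.43 at 48 h and -2.06 at 96 h. Elovl6 (chr3:129532355-129638495, plus strand) stayed below 1.5-fold in each comparison with 0 h, with 374, 364, 429 and 336 CPM, even though its covered length went from 64.5 to 22.0 kb at 96 h.

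Of the regulators, Srebf1 fell less than Fasn and was split along the gene. Srebf1 (chr11:60199089-60222581, minus strand) had 419 CPM (415 to 424) before surgery and 312 (306 to 318), 387 (376 to 398) and 376 (362 to 390) afterwards. At 0 h 1 peak of 36085 bp, reaching into Rai1, held the whole gene. At 48 h it was 2 separate peaks, with 65.5 CPM over the upstream start and 247 over the downstream start that carries the repeat shown above. At 72 and 96 h the upstream start had 37.6 and 47.5 CPM and the downstream start 333 and 313. The downstream peak thus held most of the counts after surgery, and how the counts were split at 0 h cannot be read from 1 peak. Levels over the upstream start are therefore not comparable with 0 h.

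Mlxipl (chr5:135089890-135138382, plus strand) was low in all 3 later libraries, with 349, 197, 168 and 216 CPM over 50.3, 41.2, 29.1 and 17.0 kb. The peak over its first start was at 22.0, 13.0, 16.8 and 20.0 CPM, past 1.5-fold lower at 48 h alone. The peak over its second start had 299 CPM in 41862 bp at 0 h, and 72.9, 63.1 and 72.6 CPM in 10331, 10182 and 4493 bp later. That 0 h peak ran past the end of the gene, whereas the later libraries had it in pieces.

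**Figure D2:**
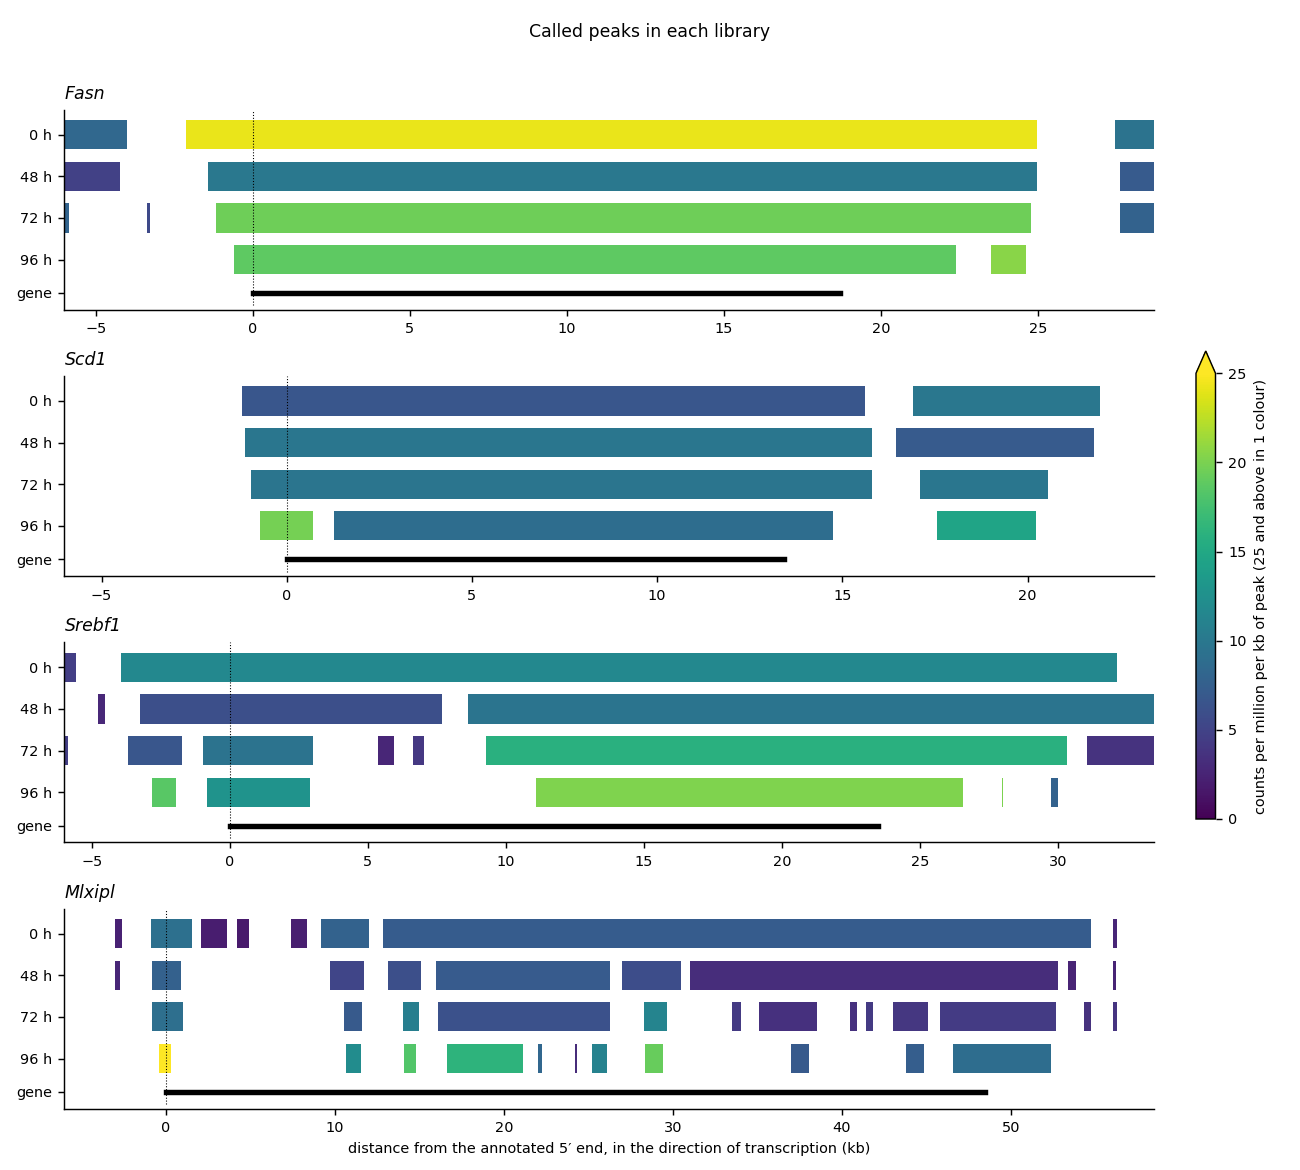
Called peaks at Fasn, Scd1, Srebf1 and Mlxipl in the 4 libraries, by distance in kb from the annotated 5′ end in the direction of transcription, coloured by CPM per kb of peak, with the gene as a black bar. The Fasn and Scd1 peaks keep nearly the same span at 0, 48 and 72 h while their colour changes, and the single Srebf1 peak of 0 h is in pieces at the later times.

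The targets differed from each other. Thrsp (chr7:97412938-97417730, minus strand) had 246 CPM (242 to 250), 136 (132 to 140), 156 (149 to 163) and 181 (172 to 191) in the order of time, so the lowest value was again that of 48 h. Its window was wholly covered by peaks in every library, but the peak itself shortened from 17624 to 14185, 12705 and 9459 bp. The later libraries had the 0 h stretch in 2, 2 and 4 peaks, which together held 156, 172 and 210 CPM in 16777, 14966 and 11402 bp. Over that stretch the log2 ratios to 0 h were -0.66, -0.52 and -0.23, past 1.5-fold lower at 48 h alone. Pnpla3 (chr15:84167837-84187236, plus strand), with nearly all of its counts in the promoter peak, had 35.8, 32.5, 42.8 and 47.1 CPM over 3.08, 2.99, 3.11 and 2.37 kb. It was lower at 48 h by a log2 ratio of 0.14 in size and higher at 72 and 96 h (0.26 and 0.40), below 1.5-fold each time. Of all genes tested, 42.0% fell as far at 48 h, and 30.4% and 27.8% rose as far at 72 and 96 h.

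As a group, the 10 genes had a lower median than all genes at 48 h, in whole-gene counts and not under every treatment of peak length. Of the 10, 5 were at least 1.5-fold lower than at 0 h (Fasn, Acaca, Acly, Mlxipl and Thrsp), where 7.73% of all 14214 genes were, and none were as much higher, where 11.8% were. At 72 h 3 were lower (Acaca, Mlxipl and Thrsp) against 17.2% of all genes, and Me1 was higher against 17.1%. At 96 h 4 were lower (Fasn, Acaca, Acly and Mlxipl) against 17.6%, and none were higher against 17.5%. Summed over all peaks of their 0 h stretch, Thrsp at 72 h and Fasn at 96 h were short of 1.5-fold lower. Past 2-fold, Fasn alone was lower at 48 h (2.04% of all genes), Mlxipl alone at 72 h (6.44%) and Acly alone at 96 h (8.79%), and none were higher (4.56%, 8.55% and 4.88%).

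Against 48 h, the 72 h library was at least 1.5-fold higher at Fasn, Acly and Me1, where 6.6% of all genes were, and lower at none, where 8.98% were. Of the 5 genes of the list that kept their length between these libraries, Fasn alone was higher, where 7.18% of such genes were, and none lower (0.469%). The 96 h library was higher than that of 48 h at Fasn alone, where 14% of all genes were, and lower at none (15.4%). Of the 202 genes that kept their length between these 2 libraries, 106 rose as far as Fasn. Their median log2 ratio was 0.72, against 0.70 for Fasn.

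Peaks within 1000 bp of the 5′ end, counted whole, gave a similar number of lower genes. Srebf1 is in these counts although its 0 h value is that of the peak over the whole gene and is not comparable with the later ones. At 48 h 5 were lower (Fasn, Acly, Srebf1, Mlxipl and Thrsp) against 10.9% of the 11454 promoters tested, and none higher against 7.04%. At 72 h 3 were lower (Acly, Srebf1 and Thrsp) against 20.8%, and none higher against 9.92%. At 96 h 5 were lower (Fasn, Acly, Scd1, Elovl6 and Srebf1) against 15.3%, and none higher against 21.4%. For Scd1 and Elovl6 the promoter peak at 96 h was short, with 28.3 CPM in 1434 bp and 76.9 CPM in 3094 bp, after 162 CPM in 16754 bp and 146 CPM in 18676 bp at 72 h.

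The median log2 ratios of the 10 genes to 0 h were -0.55, -0.05 and -0.48 at 48, 72 and 96 h, against -0.06, -0.05 and 0.07 for all genes. In regions of near-equal length the median at 48 h was -0.045 over 7 of the genes, against -0.16 for all genes, with 1 lower against 4.31%. With binarised counts (a nucleus counted once per peak) it was 0.17 against -0.07, with 0 lower against 5.05%. Per kb of peak 1 gene was lower, against 8.77%. The median log2 ratio of covered length was -0.04, -0.03 and -1.22 for the 10 genes and 0.14, -0.16 and -1.11 for all genes. Of the 7 genes of the list that kept their covered length to within 1.2 times at 48 h, Fasn and Acly were at least 1.5-fold lower, where 4.3% of all such genes were, and none were higher, where 1.05% were. At 72 h none of 5 such genes was past 1.5-fold, where 8.05% were higher and 2.79% lower, and at 96 h, of Fasn and Scd1, none was higher, where 80.3% were. The comparison with 0 h rests on 1 control library that all 3 contrasts share.

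**Figure D3:**
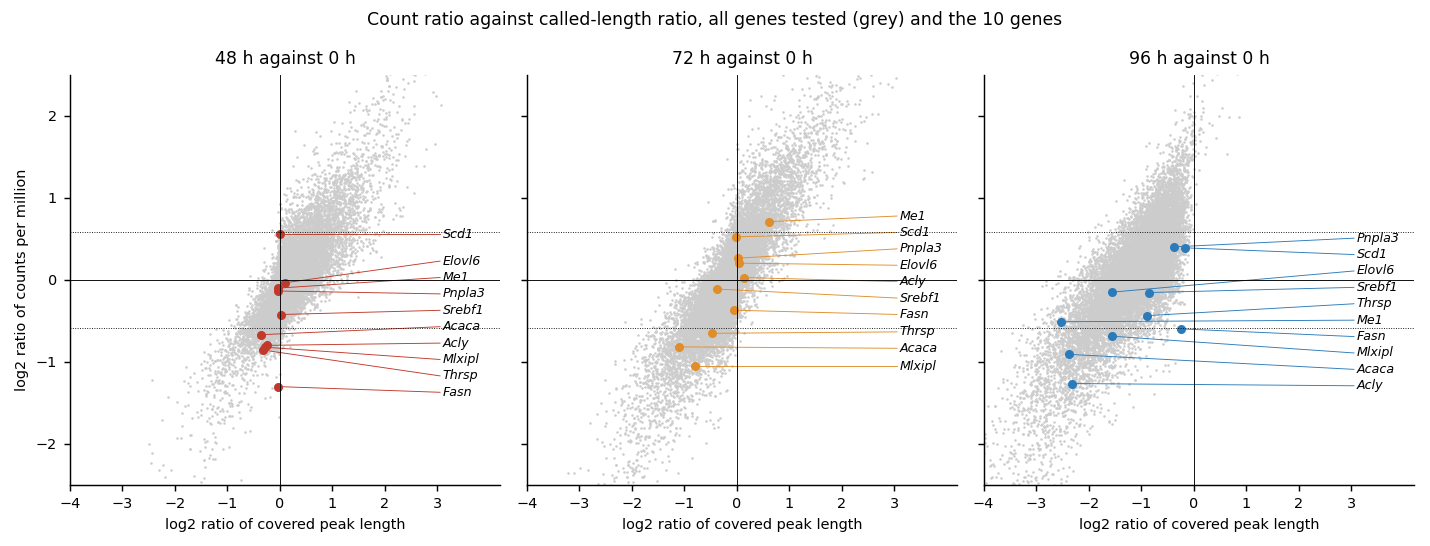
Log2 ratio of CPM (y axis) against log2 ratio of covered peak length (x axis) for all 14214 genes tested (grey) and the 10 genes (coloured, named), at 48, 72 and 96 h against 0 h, with dotted lines at 1.5-fold. Counts follow length across genes, and at 48 h Fasn lies at the lower edge of the genes whose length did not change.

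Breadth was common among these genes. At least 80% of the window of 5 of the 10 genes was covered by peaks at 0 h (Fasn, Scd1, Srebf1, Mlxipl and Thrsp), where 6.75% of all genes had such cover. The number was 4, 3 and 3 at 48, 72 and 96 h, against 6.87%, 3.43% and 1.02% of all genes. Acaca and Me1, the longest of the 10, were instead made of 35 and 40 separate regions, of which 13 and 6 had a peak in every library.

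Within each library, nuclei were split by 10 pericentral and 10 periportal marker genes, none of them in the list, into those with the higher scaled count of pericentral markers (genes active near the central vein) and the others (near the portal vein). Fatty acid synthesis is commonly placed on the pericentral side of the lobule. The split took in nuclei with at least 2000 counts, with 1368 pericentral-side and 2248 periportal-side nuclei at 0 h, 1432 and 2088 at 48 h, 1576 and 1945 at 72 h, and 1081 and 1370 at 96 h. Nuclei of 1 library are not replicates, and the intervals cover counting error only.

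Fasn was higher on the periportal side in undamaged liver, by less than 1.2-fold over all nuclei of the split, and on the pericentral side after surgery. On that side it passed 1.2-fold at 48 and 96 h but not at 72 h. At 0 h it had 600 CPM (591 to 608) in pericentral-side and 704 (696 to 713) in periportal-side nuclei, a log2 ratio of -0.23 (-0.26 to -0.20). At 48 h it had 330 (320 to 339) and 213 (206 to 220), a ratio of 0.63 (0.57 to 0.70), and at 72 and 96 h the ratio was 0.14 and 0.32. Levels on both sides were lower at 48 h than at 0 h. The sides were set within each library by markers that themselves differed between libraries, with summed levels of 2676 CPM at 0 h and 2053 at 48 h for the periportal and 1310 and 1398 for the pericentral markers, and their part in the turn was not tested.

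The signs of the Fasn ratio at 0 and 48 h were the same in a narrower range of depth. In nuclei of 3000 to 8000 counts the Fasn ratio was -0.56 (-0.83 to -0.29) at 0 h, from 128 and 198 nuclei, and 0.82 (0.57 to 1.07) at 48 h, from 302 and 543. The sides still differed in median depth within that range, with 4713 pericentral-side against 5595.5 periportal-side counts at 0 h and 5367 against 5595 at 48 h. Without barcodes shared between libraries it was -0.21 and 0.61. Over all nuclei of the split the pericentral side was the deeper one in every library, with medians of 35293 against 26604 counts at 0 h and 15062.5 against 12112 at 48 h.

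Over all nuclei of the split, Scd1 was higher on the pericentral side in all 4 libraries, most at 48 h, with 218 CPM (210 to 226) against 123 (117 to 128). The log2 ratios were 0.19, 0.83, 0.13 and 0.62 at 0, 48, 72 and 96 h, and the interval at 72 h reached 0. In nuclei of 3000 to 8000 counts they were 0.02, 0.58, 0.10 and 0.66, the largest being that of 96 h. The intervals there at 0 h (-0.64 to 0.66) and 72 h (-0.09 to 0.30) included 0. Thrsp had a ratio of 0.06 at 0 h and 0.59 at 48 h, but 0.19 (-0.17 to 0.54) at 48 h in nuclei of 3000 to 8000 counts. Acly was periportal in all 4 libraries, with log2 ratios of -0.94, -0.33, -0.39 and -0.25, although in nuclei of 3000 to 8000 counts the intervals at 48 h (-0.73 to 0.02) and 96 h (-0.55 to 0.098) included 0. Srebf1 had -0.44 at 0 h and 0.04 (-0.02 to 0.10) at 48 h.

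At 0 h 3 of the 10 genes were at least 1.2-fold higher on the periportal side (Acaca, Acly and Srebf1), where 4.61% of all genes were, and none on the pericentral side, where 5.4% were. At 48 h 4 were higher on the pericentral side (Fasn, Scd1, Thrsp and Pnpla3), where 3.76% of all genes were, and Acly on the periportal side, where 2.58% were. At 72 h none were pericentral (8.81%) and 1 periportal (Acly, 5.05%), and at 96 h 2 were pericentral (Fasn and Scd1, 13.1%) and none periportal (8.92%).

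The members counted were partly others in nuclei of 3000 to 8000 counts, where more genes passed 1.2-fold. At 0 h 7 were periportal (Fasn, Acaca, Acly, Elovl6, Srebf1, Mlxipl and Pnpla3) against 25.4% of all genes, and none pericentral against 37.6%. At 48 h 4 were pericentral (Fasn, Scd1, Me1 and Mlxipl) against 23.6%, and Acly periportal against 19.8%. At 72 h none passed on either side (14.6% pericentral and 10.7% periportal), and at 96 h Fasn and Scd1 were pericentral (19.4%) and none periportal (14.6%).

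**Figure D4:**
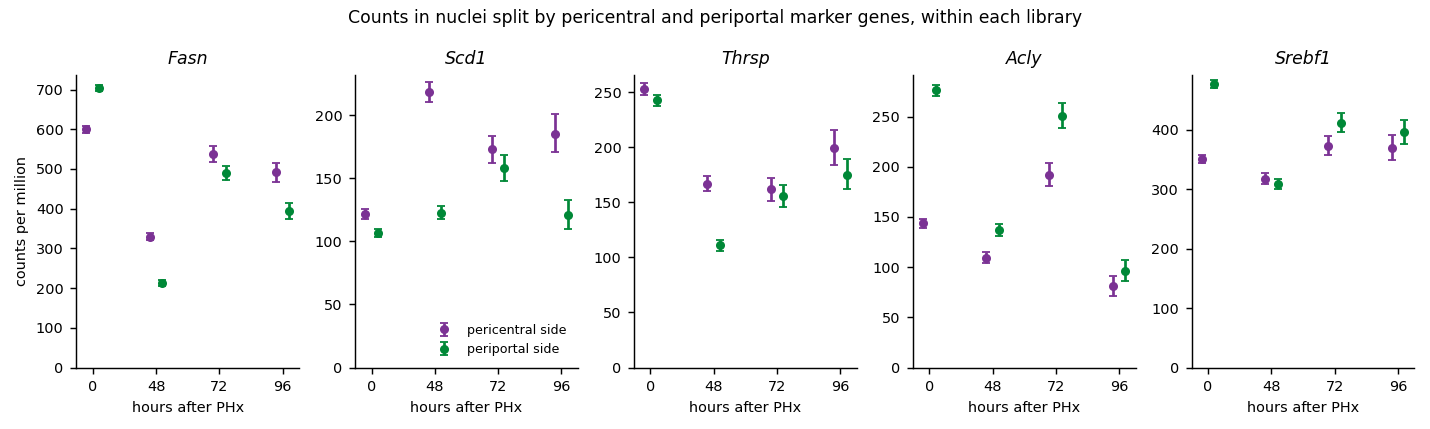
CPM at 5 genes in pericentral-side (purple) and periportal-side (green) nuclei of each library, by hours after PHx, with exact 95% Poisson intervals for counting error. Fasn is higher in periportal-side nuclei at 0 h and in pericentral-side nuclei at 48 h, and Acly is higher in periportal-side nuclei throughout.

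The neighbouring steps of the pathway were read from a further list of 54 genes, 53 of which passed the minimum. At least 1.5-fold lower than at 0 h were 14, 24 and 24 of the 53 at 48, 72 and 96 h, against 7.73%, 17.2% and 17.6% of all genes, and 2 were as much higher at each time, against 11.8%, 17.1% and 17.5%. The median log2 ratios were -0.32, -0.47 and -0.51. Of the 31 that kept their length to within 1.2 times at 48 h, 3 were lower and 1 higher, against 4.3% and 1.05% of all such genes.

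By role, the genes lower at 48 h were 2 of 9 in the supply of NADPH and acetyl-CoA, 3 of 4 in the feed of sugar carbon, 1 of 11 in malonyl-CoA and fatty acid modification (where 1 was higher), 3 of 9 in triglyceride synthesis and 5 of 20 regulators, against 7.73% of all genes. At 72 h they were 4, 3, 3, 5 and 9, and at 96 h 3, 2, 6, 5 and 8, against 17.2% and 17.6%.

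Among genes that feed sugar carbon into the route, Khk (ketohexokinase) had 182, 69.8, 61.6 and 81.4 CPM, and Pklr (liver pyruvate kinase) 139, 78.1, 85.8 and 26.2. Both were lower in all 3 later libraries, and both had less called length there, with log2 length ratios of -0.69, -0.996 and -1.50 for Khk and -0.40, -0.59 and -3.83 for Pklr. In triglyceride synthesis, 1 of the 5 genes of near-equal length was lower at 48 h, against 4.3% of all such genes. Dgat2, which makes triglyceride, had 707, 396, 403 and 426 CPM. The covered length of Dgat2 dropped by 0.22 on the log2 scale at 48 h.

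Of the 20 regulators, 1 was higher at 48 h, against 11.8% of all genes, and of the 14 of near-equal length 2 were lower and 1 higher, against 4.3% and 1.05% of all such genes. The one that was higher was Rxra, the partner of LXR and of other nuclear receptors, with 751, 1145, 1401 and 1394 CPM. Its log2 ratios were 0.61, 0.90 and 0.89 while its covered length changed by log2 ratios of 0.07, 0.05 and -0.13. Of all genes of near-equal length, 8.05% were at least 1.5-fold higher at 72 h. At 96 h 80.3% were, with a median of 0.96, so Rxra was then no higher than the typical gene of that group. Nr1h3, which encodes LXR alpha, had 95.1, 85.6, 87.5 and 61.9 CPM. Ppara, the fatty acid oxidation regulator, had 703, 452, 288 and 269 CPM, lowest at 96 h, where its covered length had also dropped most. Scap, which escorts SREBP from the endoplasmic reticulum to the Golgi, was lower at 48 h by 0.59 on the log2 scale. Insig2 and Insig1, which retain SREBP with Scap in the endoplasmic reticulum, had log2 ratios of -0.65, past 1.5-fold, and -0.23, and the log2 length ratios of Scap, Insig2 and Insig1 were -0.58, -0.72 and -0.041.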

How the data were processed

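Per the labels and file headers, the authors deposited whole-number counts of Tn5 cut sites per peak and barcode, made with Cell Ranger ATAC 1.1.0 on mm10, with peaks called in each library. The methods give 4 mice per time point for hepatocytes, but not how many entered the 72 and 96 h libraries. Both ends of a fragment count, so intervals were computed on counts divided by 2. Barcodes with at least 1000 counts were kept, and no doublet caller was run. Total counts were 136949314, 62553202, 25540258 and 15809769 at 0, 48, 72 and 96 h. Counts in peaks over a gene or the 2000 bp upstream were summed and scaled to all peaks, with Python 3.11.15, numpy 2.4.6 and scipy 1.17.1. Genes with a mean of at least 10 CPM formed the background, and 1.5-fold was the threshold. With 1 library per time point no test was run. All 10 genes are named, and regions by size of change. The counting was tested on simulated data. Members and lists were chosen with earlier results of these data known. The marker-low rule, the depth band and the removal of shared barcodes were set after seeing the data. Alternatives concerned barcodes, scaling, values and peaks. The values of 1 gene of the pathway list are not reported here.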

Additional observations from a re-analysis of the deposited data

How the results depend on the processing

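No paired analysis was possible because each time point had 1 library. Fasn at 48 h stayed at least 1.5-fold lower in every alternative but binarised counts. As Fasn and Scd1 are 1 region each, the alternatives on the part of the gene or the choice of regions take the same peak at 48 h and could not differ. Binarised counts, which cannot exceed 1 per peak and nucleus, gave log2 ratios to 0 h of 0.22, 1.40 and 1.43 at 48, 72 and 96 h for Fasn, 0.96, 1.58 and 1.72 for Srebf1, 0.44, 1.14 and 0.12 for Acly, 0.31, 0.32 and 0.73 for Mlxipl at 48, 72 and 96 h, and 0.041, 0.65 and 0.90 for Thrsp at 48, 72 and 96 h. Fasn is a single long peak that 85.5% of 0 h nuclei had a count in. Counts per kb gave 0.27 and 1.46 for Acaca at 72 and 96 h, and at 96 h 1.04 for Acly, 0.87 for Mlxipl, 2.02 for Me1, 1.40 for Elovl6, 0.69 for Srebf1 and 0.46 for Thrsp. Regions of near-equal length gave 0.21 for Acaca at 72 h and 0.47 for Acly at 48 h. Me1 at 72 h was -0.40 at the promoter and -0.063 in regions with a peak in every library. The cause was not tested for these.

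The median of the 10 genes at 48 h was -0.38 in nuclei of 3000 to 8000 counts, 0.17 with binarised counts, -0.38 per kb, -0.49 with the median gene at 0, -0.64 at promoters, -0.045 in regions of near-equal length (7 genes), -0.61 in regions with a peak in every library and -0.47 with shared regions as the scale. At 72 h it was 0.093 in nuclei of 3000 to 8000 counts, 0.65 binarised, 0.13 per kb, -0.38 at promoters and 0.23 in regions of near-equal length (6 genes), where all genes had 0.12. At 96 h it was -0.34 in nuclei of 3000 to 8000 counts, 0.55 binarised, 0.83 per kb (all genes 1.25), 0.99 in regions of near-equal length (2 genes; all genes 1.13), -0.36 in regions with a peak in every library and -0.59 with shared regions as the scale.

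The number at least 1.5-fold higher at 48 h was 1 with binarised counts (7.83% of all genes), the median gene at 0 (13.5%) or shared regions as the scale (14%). At 72 h it was 2 in nuclei of 3000 to 8000 counts (16.2% of all genes) and 6 binarised (13.2%). It was 0 per kb (9.1%), at promoters (9.92%), in regions of near-equal length (13.8%) and in regions with a peak in every library (14%). At 96 h it was 1 in nuclei of 3000 to 8000 counts (15% of all genes), 5 binarised (12.9%), 7 per kb (93.3%) and 1 in regions of near-equal length (81.6%). The number lower at 48 h was 0 binarised (5.05% of all genes), 1 per kb (8.77%) and 1 in regions of near-equal length (4.31%). In nuclei of 3000 to 8000 counts Fasn, Acly, Mlxipl and Thrsp were lower at 48 h, where 20.7% of all genes were. At 72 h the number lower was 1 binarised (16.6% of all genes), 0 per kb (2.02%) and 0 in regions of near-equal length (3.65%). At 96 h it was 1 in nuclei of 3000 to 8000 counts (21.7% of all genes), 1 binarised (16.3%), 0 per kb (0.0566%) and 0 in regions of near-equal length (0.0518%). A 2-fold threshold gave 1 lower at 48, 72 and 96 h (2.04%, 6.44% and 8.79% of all genes) and 0 higher at 72 h (8.55%). Of the 8 genes below 0 at 96 h, Fasn alone stayed below 0 per kb (-0.36). Scd1 was above 0 at 48 and 72 h in all alternatives. Depth was lower in each later library.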
